A study of Mus musculus with 4 samples.

Results

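The liver transcriptomes of 2 single-knockout male mice were set against each other: 1 mouse lacking Cyp27a1 globally (Cyp27a1 KO) and 1 lacking the gene that the labels call Cyp3a4, reported here for the mouse Cyp3a family (Cyp3a KO), although which of its genes the deletion covers is not given in the labels. The genes compared were all those with a mean CPM (library-scaled counts per 1000000) of 1 or more over the 4 libraries of the study, which kept 11743 of 33639 genes. The other 2 libraries, wild type (WT) and the double knockout of both loci (DKO), show where each difference lies. All 4 mice were males on a chow diet and a light/dark cycle of equal 12 h phases, group-housed and untreated; neither age, genetic background nor time of day of collection is given in the sources used here. There was 1 library per genotype, so the differences have no replicate check and no p-values, and they describe these libraries, not the genotypes. The deposited tables hold 49980012 counts for the Cyp27a1 KO and 50378101 for the Cyp3a KO, 49745860 for WT and 50280651 for the DKO, so that 1 count is worth 0.0185 to 0.0214 CPM.

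Bile acids are made from cholesterol in hepatocytes. The classic pathway begins with Cyp7a1 in the endoplasmic reticulum, and the alternative pathway with the mitochondrial sterol 27-hydroxylase Cyp27a1, which also begins the side-chain oxidation of the classic pathway. Bile acids that reach the nuclear receptor FXR induce Nr0b2 (SHP), a repressor of Cyp7a1. The Cyp3a enzymes hydroxylate drugs, steroids and bile acids and are induced through the receptors PXR and CAR, so that both deletions remove a cytochrome P450 that acts on sterols and bile acids.

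Of the 11743 genes, 329 (2.8%) were at least 2-fold apart between the 2 knockouts, 187 (1.59%) higher in the Cyp27a1 KO and 142 (1.21%) higher in the Cyp3a KO. Apart from Cyp27a1 and the Cyp3a genes, the Cyp27a1 KO had higher levels of Cyp7a1, the growth hormone feedback genes Cish and Socs2, the lipid genes Scd1, Cd36 and Cidec, and 4 of 7 clock genes of the Arntl group. The Cyp3a KO had higher levels of 5 of 15 clock genes of the Dbp group, Nr0b2, 11 major urinary protein genes, Hsd3b5, Slco1a1, Bcl6 and 4 genes of cholesterol synthesis and uptake. A gene was counted when log2(CPM + 0.5) differed by at least 1 and the ratio of counts had an exact 95% interval that excluded 1; this interval is printed after a fold and covers counting error only.

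The clock and cholesterol genes are shown first by their promoters, because the members of each group past 2-fold were on the same side of the comparison and such genes are known to be read through short promoter motifs: CACGTG, the E-box bound by CLOCK and BMAL1, and TCACNCCAC, a sterol response element bound by SREBP. The 250 bases before the start site of 4 genes are printed 5′ to 3′ from RefSeq (GRCm38.p6), with the motif in capitals; the 4 were chosen after the matches were seen, among genes with 1 start site in the table.
Ciart: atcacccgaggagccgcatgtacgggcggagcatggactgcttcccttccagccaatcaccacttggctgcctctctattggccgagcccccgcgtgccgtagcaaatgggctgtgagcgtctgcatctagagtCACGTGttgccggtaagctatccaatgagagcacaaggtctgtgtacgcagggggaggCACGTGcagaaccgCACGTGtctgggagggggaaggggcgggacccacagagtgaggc
Bhlhe41: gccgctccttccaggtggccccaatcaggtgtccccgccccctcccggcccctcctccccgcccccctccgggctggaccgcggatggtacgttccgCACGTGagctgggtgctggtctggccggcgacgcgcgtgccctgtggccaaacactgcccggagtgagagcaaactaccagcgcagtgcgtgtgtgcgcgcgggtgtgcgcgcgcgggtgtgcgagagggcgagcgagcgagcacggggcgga
Cry1: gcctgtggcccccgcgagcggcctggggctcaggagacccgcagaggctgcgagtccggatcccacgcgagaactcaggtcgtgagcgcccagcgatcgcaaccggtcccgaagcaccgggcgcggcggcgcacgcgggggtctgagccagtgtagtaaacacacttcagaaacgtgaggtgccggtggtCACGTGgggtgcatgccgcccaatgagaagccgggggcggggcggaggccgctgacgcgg
Hmgcs1: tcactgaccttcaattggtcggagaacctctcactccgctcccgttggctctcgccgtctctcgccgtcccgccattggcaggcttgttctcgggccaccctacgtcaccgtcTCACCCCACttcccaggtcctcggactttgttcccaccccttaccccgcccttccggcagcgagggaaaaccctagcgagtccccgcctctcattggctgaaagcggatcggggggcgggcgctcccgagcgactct
The windows are chr3:95882229-95882478 (minus strand) for Ciart, chr6:145865421-145865670 (minus) for Bhlhe41, chr10:85185055-85185304 (minus) for Cry1 and chr13:119690101-119690350 (plus) for Hmgcs1. The E-boxes begin 116, 58 and 44 bases before the start of Ciart, 153 before that of Bhlhe41 and 60 before that of Cry1, and the sterol element begins 137 bases before that of Hmgcs1.

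Searched on both strands, CACGTG was in the windows of 5 of 12 Dbp-group clock genes with a window (41.7%: Bhlhe41, Ciart, Per1, Tef and Tspan4), 1 of 6 Arntl-group genes (16.7%: Cry1), 4 of 18 cholesterol genes (22.2%: Dhcr7, Hsd17b7, Insig1 and Sc5d) and 6.86% of 27025 genes with a window. Of the 5 Dbp-group genes with the E-box, Ciart and Bhlhe41 were past 2-fold in the comparison and Per1, Tef and Tspan4 were not; Tspan4 had its higher value in the Cyp27a1 KO, at 37.7 against 26.2 CPM, opposite to the other 4. TCACNCCAC was in 1 of the 18 cholesterol windows (5.56%: Hmgcs1), in 0 of both clock groups, and in 1.22% of all windows. TTANGTAA, the D-box bound by DBP, was in 1 of 12 Dbp-group windows (8.33%: Per3), 0 of the other 2 groups and 2.44% of all. AGGTCA, the core of many nuclear receptor sites, was in 2 of 12 Dbp-group (16.7%), 2 of 6 Arntl-group (33.3%) and 3 of 18 cholesterol windows (16.7%), among them that of Hmgcs1, beside 15.8% of all. A match describes these letters only.

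Most genes were close in the 2 knockouts. The median difference over the 11743 genes was -0.00 on the log2 scale and the median size of a difference 0.18; the Cyp27a1 KO had the higher value for 5835 genes and the Cyp3a KO for 5904, 10639 genes (90.6%) lay within 1.5-fold, and the 99th percentile of the size was 1.61. With Cyp27a1 and the Cyp3a genes set aside, 179 genes were higher in the Cyp27a1 KO beside 141 in the Cyp3a KO, and at least 4-fold apart were 51 and 31, those genes included. Protein-coding genes made up 162 of the 187 and 126 of the 142. The rule is a line drawn through a continuum: Ttc21b (1.0003 on the log2 scale) and Prex2 (-1.0005) fell just inside, Atp1b1 (0.99994) and Igfbp1 (0.99993) just outside, and 73 genes were between 1.9-fold and 2-fold apart. At the edge of the level filter, Tgif2 was kept with a mean of 1.001 CPM and Tmem119 left out with 0.999 CPM.

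**Figure D1:**
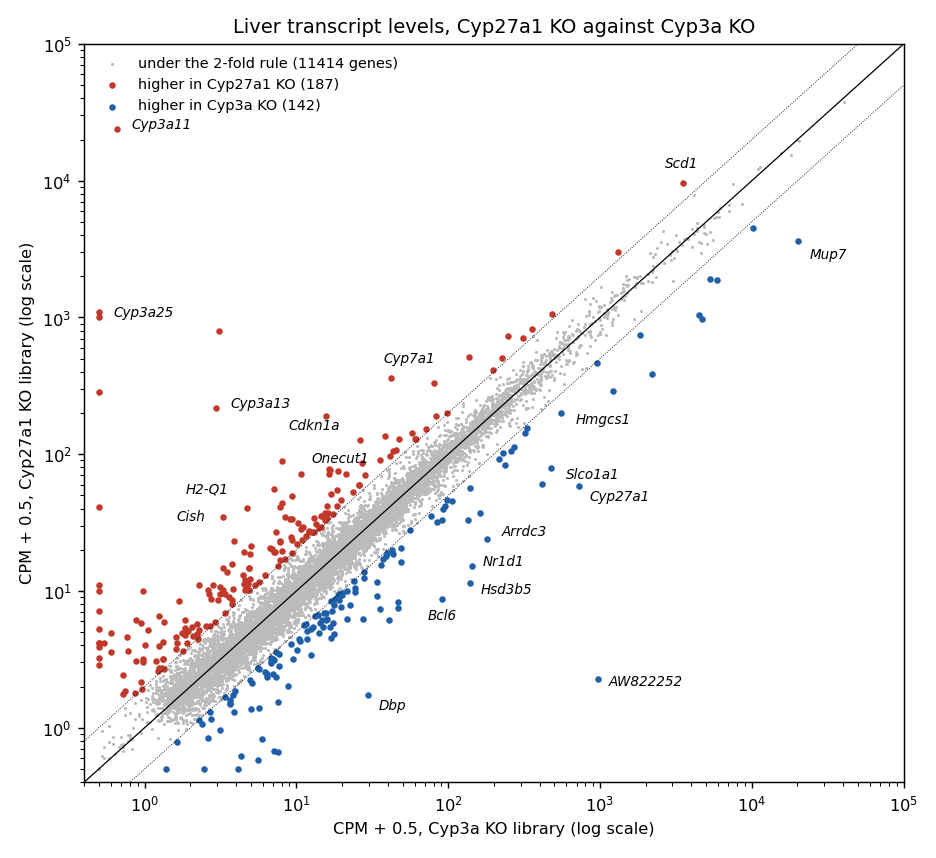
Each point is 1 of 11743 genes, by CPM + 0.5 in the Cyp3a KO library (x axis, log scale) and in the Cyp27a1 KO library (y axis, log scale). The solid line marks equal levels and the dotted lines 2-fold; 187 genes (red) lie above the band and 142 (blue) below it, with Cyp3a11, Cyp7a1 and Cish among those above and Dbp, Nr1d1 and Mup7 among those below.

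Cyp27a1 and the Cyp3a genes were low in the libraries labelled as their knockouts. Cyp27a1 (chromosome 1, 74713574 to 74737892, GRCm38) was at 746 CPM in WT, 57.6 in Cyp27a1 KO, 727 in Cyp3a KO and 65.3 in DKO liver, 12.6-fold (12.1 to 13.1) higher in the Cyp3a KO than in the Cyp27a1 KO. Transcript of the locus was therefore reduced and not absent. The 9 Cyp3a genes in the table summed to 9605 CPM in WT, 25248 in Cyp27a1 KO, 2.70 in Cyp3a KO and 13.2 in DKO liver. Cyp3a25 was 1013 CPM in the Cyp27a1 KO and had 0 counts in the Cyp3a KO, and Cyp3a59 was 283 CPM in the Cyp27a1 KO with 0 counts in the Cyp3a KO. Cyp3a44, Cyp3a16 and Cyp3a41b also had 0 counts in the Cyp3a KO, Cyp3a11 had 8 and Cyp3a41a had 5. Cyp3a13, which lies apart from the cluster on chromosome 5 (137892932 to 137921619), was 106 CPM in WT, 216 in Cyp27a1 KO, 2.44 in Cyp3a KO and 2.64 in DKO liver. All 8 measured Cyp3a genes were past the rule, Cyp3a13 included, and Cyp3a57 was under the level filter; reads of near-identical copies such as Cyp3a41a and Cyp3a41b may have been split between them.

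Among the 21 measured genes of bile acid synthesis, Cyp7a1, which limits the rate of the classic pathway, was the member past the rule besides Cyp27a1. Over all genes 2.8% were past the rule in either direction. Cyp7a1 (chromosome 4, 6265612 to 6275633) was 22.4 CPM in WT, 362 in Cyp27a1 KO, 41.3 in Cyp3a KO and 173 in DKO liver. The 2 libraries without Cyp27a1 were the 2 high ones, and the Cyp27a1 KO was 8.76-fold (8.37 to 9.17) above the Cyp3a KO. The other 19 genes lay within 1.5-fold, and the median difference of the list was -0.07 beside -0.00 over all genes. Cyp7b1, the oxysterol 7-alpha-hydroxylase of the alternative pathway, was 231 CPM in WT, 150.2 in Cyp27a1 KO, 209 in Cyp3a KO and 15.4 in DKO liver. Cyp8b1, which sets the share of cholic acid, was 742 CPM in the Cyp27a1 KO against 663 in the Cyp3a KO. Cyp39a1, a 24-hydroxycholesterol 7-alpha-hydroxylase, was low in both single knockouts, at 12.0 and 13.4 CPM beside 99.7 in WT and 52.7 in the DKO, and the interval of its ratio (0.996 to 1.25) included 1. The conjugating enzymes were also close, with Baat at 235 and 238 CPM and Slc27a5 at 1190.2 and 1012 CPM in the Cyp27a1 KO and the Cyp3a KO.

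The FXR feedback genes gave 1 of 8 measured members past the rule, Nr0b2, and it was higher in the Cyp3a KO. Over all genes 1.21% were past the rule on that side. Nr0b2 was 16.3 CPM in WT, 7.87 in Cyp27a1 KO, 46.3 in Cyp3a KO and 24.3 in DKO liver, a 5.89-fold difference (5.29 to 6.57) between the single knockouts with WT between them. The order of the single knockouts was thus opposite to that of Cyp7a1, while the DKO was above WT for both genes. FXR itself, Nr1h4, was 87.1 CPM in the Cyp27a1 KO against 74.2 in the Cyp3a KO. The receptor for the intestinal hormone FGF15, Fgfr4, was 35.1 and 27.2 CPM, and its partner Klb 20.9 and 24.2 CPM.

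Of 15 measured bile acid and sterol transporters, 1 was higher in each knockout. Abcc4 (MRP4), a basolateral export pump for conjugated bile acids, was 3.24 CPM in WT, 22.7 in Cyp27a1 KO, 3.40 in Cyp3a KO and 20.7 in DKO liver, 6.67-fold (5.67 to 7.89) higher in the Cyp27a1 KO. Its level was low in WT and the Cyp3a KO and high in both libraries without Cyp27a1. Slco1a1, a sinusoidal uptake carrier of organic anions, was 341 CPM in WT, 78.2 in Cyp27a1 KO, 478 in Cyp3a KO and 1.94 in DKO liver, 6.12-fold (5.91 to 6.33) higher in the Cyp3a KO. The other main carriers differed by less than 2-fold: the canalicular pump Abcb11 was 475 CPM in the Cyp27a1 KO against 673 in the Cyp3a KO, the uptake carrier Slc10a1 367 and 405, and the basolateral pump Abcc3 624 and 741. Abcb1a (3.37 and 7.19 CPM, -0.99 on the log2 scale) was just under the rule.

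The genes induced by PXR and CAR did not divide the 2 knockouts as a group. Of 29 measured targets, 4 were higher in the Cyp27a1 KO beside 0 in the Cyp3a KO, with a median difference of 0.05. The shares over all genes were 1.59% and 1.21%. Cyp2a5, a coumarin hydroxylase, was 427 CPM in WT, 3004 in Cyp27a1 KO, 1309.7 in Cyp3a KO and 7399.9 in DKO liver. Gsta1, a glutathione transferase, was 4.61 CPM in WT, 90 in Cyp27a1 KO, 35.2 in Cyp3a KO and 384 in DKO liver. Both genes were above WT in both knockouts, and the 2 knockouts differed from each other by 2.29-fold (2.27 to 2.31) for Cyp2a5 and 2.56-fold (2.42 to 2.70) for Gsta1. Gsta2 had the same order, with 105 and 43.0 CPM in the Cyp27a1 KO and the Cyp3a KO. Sult1e1, the estrogen sulfotransferase, was low in all but the DKO, at 0.450, 3.07, 0.0999 and 27.1 CPM in WT, Cyp27a1 KO, Cyp3a KO and DKO. Cyp2b10, a CAR target, and Cyp2c55 stayed under the rule in the other direction, at 223 and 353 CPM and at 243 and 455 CPM in the Cyp27a1 KO and the Cyp3a KO.

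Within the P450 and conjugation families the members went different ways. In the Cyp2c family, 3 of 14 measured genes were higher in the Cyp3a KO and 0 in the Cyp27a1 KO, with a median of -0.46. Over all genes 1.21% were higher in the Cyp3a KO and 1.59% in the Cyp27a1 KO by the rule. Cyp2c69 was 0.794 CPM in WT, 5.60 in Cyp27a1 KO, 40.1 in Cyp3a KO and 14.9 in DKO liver, a 7.15-fold difference (6.31 to 8.14). Cyp2c40 was 6.58, 36.5, 161 and 80.9 CPM in the same order, 4.40-fold (4.18 to 4.63) higher in the Cyp3a KO. WT was the lowest library for both. The remaining member past the rule was the pseudogene Cyp2c53-ps, and reads of these similar copies may have been split between them. In the Cyp2a and Cyp2b families 2 of 7 were higher in the Cyp27a1 KO, Cyp2a5 and Cyp2a22, the latter at 4.66 and 0.559 CPM.

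Of 15 NRF2 targets, 3 antioxidant and conjugation genes passed the rule toward the Cyp27a1 KO and 0 toward the Cyp3a KO; 11 of the 15 had the higher value in the Cyp27a1 KO, beside 5835 of all 11743 genes. The 3 were Gsta1 and Gsta2, also counted above, and Nqo1, a quinone reductase at 9.78 and 3.34 CPM in the Cyp27a1 KO and the Cyp3a KO (2.93-fold, 2.45 to 3.52). Of 17 UDP-glucuronosyltransferases and 5 Sult2a sulfotransferases, 0 were past the rule, beside 2.8% of all genes in either direction. At that share, 0 in lists of this length does not set them apart. Sult2a1, Sult2a2 and Sult2a5 were also under 0.5 CPM in both single knockouts, so with the pseudocount of 0.5 CPM they could not pass the rule. They reached the level filter through the DKO, at 728, 595 and 128 CPM. Sult2a8 was 427 CPM in the Cyp27a1 KO against 803 in the Cyp3a KO. Of 13 carboxylesterases, Ces2c was higher in the Cyp27a1 KO, at 189 against 82.3 CPM.

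Of 26 genes of cholesterol synthesis and uptake, 4 passed the rule toward the Cyp3a KO, beside a background of 1.21%, and 0 toward the Cyp27a1 KO. The other 22 were under the rule; over all 26 the median difference was -0.56, and 23 had the higher value in the Cyp3a KO, beside 5904 of all 11743 genes. Hmgcs1, the HMG-CoA synthase whose promoter with a sterol element is printed above, was 119 CPM in WT, 198 in Cyp27a1 KO, 551 in Cyp3a KO and 1589 in DKO liver, 2.78-fold (2.71 to 2.84) higher in the Cyp3a KO. Mvd, the mevalonate diphosphate decarboxylase, was 5.83 CPM in WT, 9.26 in Cyp27a1 KO, 24 in Cyp3a KO and 59.5 in DKO liver, a 2.59-fold difference (2.32 to 2.89). In both genes the levels stood in the order WT, Cyp27a1 KO, Cyp3a KO, DKO. Insig1, the sterol-regulated anchor of SREBP, was 176, 156, 331 and 377 CPM in WT, Cyp27a1 KO, Cyp3a KO and DKO. Squalene epoxidase, Sqle, was 63.0 CPM in the Cyp27a1 KO against 125 in the Cyp3a KO, and Idi1 229.6 and 433, both just under 2-fold. The summed level of the 26 genes was 4362 CPM in the Cyp27a1 KO against 5554 in the Cyp3a KO, a ratio of 1.27.

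Fatty acid and lipid storage genes past the rule lay on both sides, with more of them higher in the Cyp27a1 KO. Of 19 lipogenesis genes, 3 were higher there and 1 in the Cyp3a KO. For 18 genes of lipid uptake and droplets the counts were 4 and 2. These small counts stand beside 2.8% of all genes past the rule, with 56.8% of those 329 higher in the Cyp27a1 KO. The list medians were 0.17 and 0.12. The Cyp27a1 KO had the higher value for 12 of the 19 and 11 of the 18, beside 5835 of all 11743 genes. Scd1, the stearoyl-CoA desaturase, was 3755 CPM in WT, 9689.8 in Cyp27a1 KO, 3525 in Cyp3a KO and 10640.0 in DKO liver, 2.75-fold (2.73 to 2.76) higher in the Cyp27a1 KO. Thrsp, a lipogenic regulator, was 159, 503, 225 and 592 CPM in WT, Cyp27a1 KO, Cyp3a KO and DKO, and Cd36, a fatty acid uptake receptor, 21.9, 136, 37.8 and 174 CPM. These 3 genes were high in the libraries without Cyp27a1 and lower in WT and the Cyp3a KO. Cidec, a lipid droplet protein, was 9.18 CPM in WT, 15.3 in Cyp27a1 KO, 3.26 in Cyp3a KO and 3.69 in DKO liver, a 4.71-fold difference (3.97 to 5.61). Fitm1, also of lipid droplets, was 71.0 CPM in the Cyp27a1 KO against 20.9 in the Cyp3a KO, and Plin5 199.6 and 97.5.

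The opposite direction held the transcription factor Srebf1, the lipase inhibitor G0s2 and the fatty acid binding protein Fabp2. Srebf1, which drives lipogenic genes, was 42.2 CPM in WT, 41.6 in Cyp27a1 KO, 95 in Cyp3a KO and 53.2 in DKO liver, 2.28-fold (2.17 to 2.41) higher in the Cyp3a KO. G0s2 was 32.4 CPM in the Cyp27a1 KO against 91.0 in the Cyp3a KO, and Fabp2 18.1 and 42.9. Of 28 genes of PPAR-alpha targets, fatty acid oxidation and ketogenesis 1 was past the rule, Cyp4a31, a fatty acid hydroxylase at 7.15 and 19.2 CPM, and the median was -0.03. This 1 of 28 is near the 2.8% of all genes past the rule in either direction. The LXR list gave Pltp, the phospholipid transfer protein, at 128 and 47.0 CPM, as its member higher in the Cyp27a1 KO, with Srebf1 as the one higher in the Cyp3a KO.

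Retinoid genes included 3 of 16 higher in the Cyp27a1 KO beside 1 in the Cyp3a KO. The shares over all genes were 1.59% and 1.21%. The retinoic acid hydroxylases Cyp26a1 and Cyp26b1 were 30.8 and 9.06 CPM in the Cyp27a1 KO against 9.77 and 2.14 in the Cyp3a KO, differences of 3.15-fold (2.84 to 3.49) and 4.24-fold (3.43 to 5.28). Rdh9 went the other way, at 15.7 CPM in the Cyp27a1 KO against 48.2 in the Cyp3a KO. Among genes of glucose handling, G6pc, the last step of glucose output, was 821 CPM in the Cyp27a1 KO against 355 in the Cyp3a KO, and the insulin signalling adaptor Irs2 70.4 and 27.6 CPM; Pfkfb3 and Igfbp2 were past 2-fold toward the Cyp3a KO on counts but not in the TPM table. Csad, which makes the taurine that bile acids are conjugated with, was 275 CPM in WT, 713 in Cyp27a1 KO, 309 in Cyp3a KO and 369 in DKO liver.

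**Figure D2:**
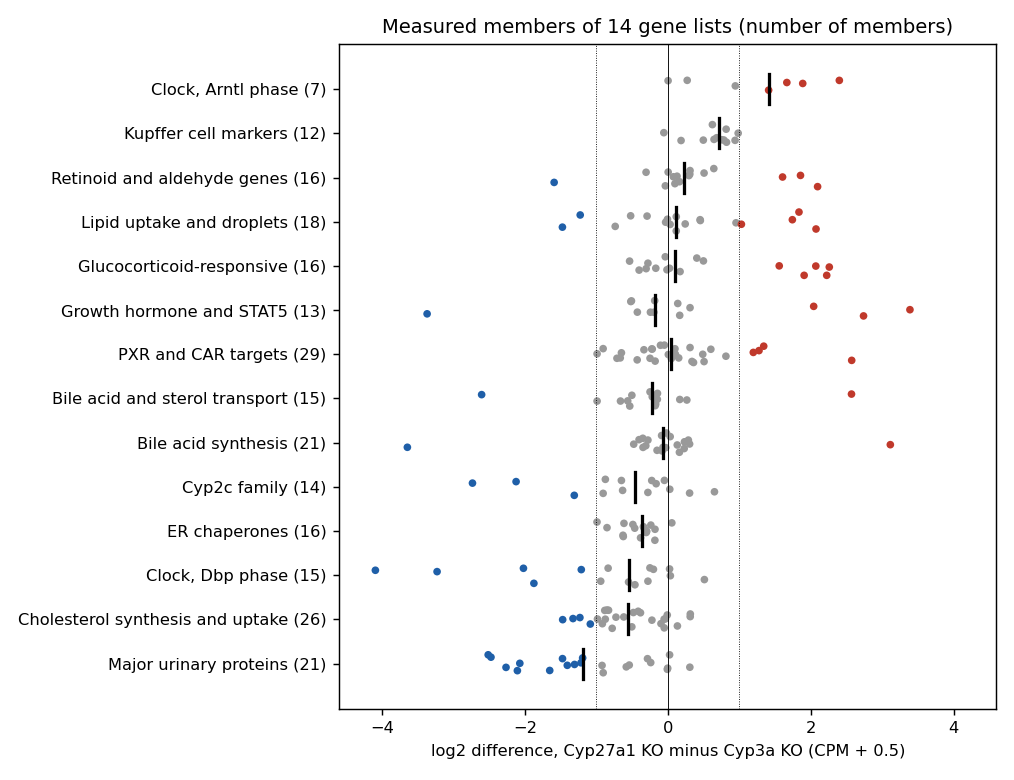
Each point is 1 measured gene of 14 gene lists, placed by its log2 difference (Cyp27a1 KO minus Cyp3a KO, CPM + 0.5) on the x axis, red where counted higher in the Cyp27a1 KO and blue where counted higher in the Cyp3a KO. Black bars are list medians, from 1.41 for the Arntl-group clock genes to -1.19 for the major urinary proteins, and dotted lines mark 2-fold.

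The growth hormone and STAT5 genes held several of the large differences outside the Cyp27a1 and Cyp3a loci. Growth hormone acts on hepatocytes through JAK2 and STAT5, which induce the feedback inhibitors Cish and Socs2 and, in male mice with pulsatile hormone, sustain male-biased genes such as the major urinary proteins. Of 13 measured genes of this list, 3 were higher in the Cyp27a1 KO beside 1 in the Cyp3a KO. The shares over all genes were 1.59% and 1.21%. Cish was 13.7 CPM in WT, 34 in Cyp27a1 KO, 2.80 in Cyp3a KO and 12.1 in DKO liver, 12.2-fold (10.2 to 14.6) higher in the Cyp27a1 KO. Socs2 was 7.85 CPM in WT, 34.4 in Cyp27a1 KO, 7.97 in Cyp3a KO and 4.49 in DKO liver, a 4.31-fold difference (3.87 to 4.82). The Cyp27a1 KO was the highest of the 4 libraries for both inhibitors, and the Cyp3a KO was the lowest for Cish. Onecut1, a liver transcription factor, was 20.4, 71.1, 10.2 and 11.1 CPM in WT, Cyp27a1 KO, Cyp3a KO and DKO. Bcl6, a repressor that binds many STAT5 sites, was 10.1 CPM in WT, 8.27 in Cyp27a1 KO, 90.1 in Cyp3a KO and 5.32 in DKO liver, 10.9-fold (9.84 to 12.1) higher in the Cyp3a KO. The receptor Ghr (381 and 451 CPM) and the secreted effector Igf1 (339 and 387 CPM) were close in the 2 knockouts.

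Of the 21 major urinary protein genes, small lipocalins that males secrete in amount, 11 were higher in the Cyp3a KO, beside a background of 1.21% of all genes, and 0 in the Cyp27a1 KO, with a median of -1.19. Mup7 was 28047 CPM in WT, 3649.6 in Cyp27a1 KO, 20285 in Cyp3a KO and 17.2 in DKO liver, 5.56-fold (5.53 to 5.59) higher in the Cyp3a KO. Mup2 was 1088 CPM in WT, 387 in Cyp27a1 KO, 2214 in Cyp3a KO and 14 in DKO liver, a 5.72-fold difference (5.63 to 5.8). For both genes the Cyp27a1 KO was below WT and the DKO lowest by far. Summed over the 21 genes the level was 91477 CPM in WT, 38392 in Cyp27a1 KO, 79920.1 in Cyp3a KO and 2440.1 in DKO liver. The Cyp3a KO sum was 2.08 times that of the Cyp27a1 KO, or 1.72 times without Mup7. Not all members took part: Mup20 was 7729 CPM in WT, 2067 in Cyp27a1 KO, 2069 in Cyp3a KO and 537 in DKO liver. These genes are near-identical copies, so the split of reads between members is uncertain and the sum is the firmer value.

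Sex-biased genes did not all follow the major urinary proteins. Of 18 male-biased genes, 3 were higher in the Cyp3a KO (Hsd3b5, Slco1a1 and Mup7) and 0 in the Cyp27a1 KO. Over all genes 1.21% were higher in the Cyp3a KO and 1.59% in the Cyp27a1 KO by the rule. Hsd3b5, a male-specific steroid dehydrogenase (chromosome 3, 98618634 to 98630252), was 27.6 CPM in WT, 10.9 in Cyp27a1 KO, 139 in Cyp3a KO and 0.129 in DKO liver, 12.7-fold (11.7 to 13.9) higher in the Cyp3a KO. It was highest in the Cyp3a KO, with WT between the single knockouts. Of 12 female-biased genes, 2 were higher in the Cyp27a1 KO, Cyp17a1 among them, and 3 in the Cyp3a KO (Cyp2c69, Cyp2c40 and Rdh9), so this list was divided. Cyp17a1, the steroid 17-alpha-hydroxylase, was 26.2 CPM in WT, 8.13 in Cyp27a1 KO, 2.56 in Cyp3a KO and 1.74 in DKO liver. Hsd17b6, which oxidizes androgen metabolites, was 73.4, 60.3, 411 and 431 CPM in WT, Cyp27a1 KO, Cyp3a KO and DKO, high in both libraries with the Cyp3a deletion.

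**Figure D3:**
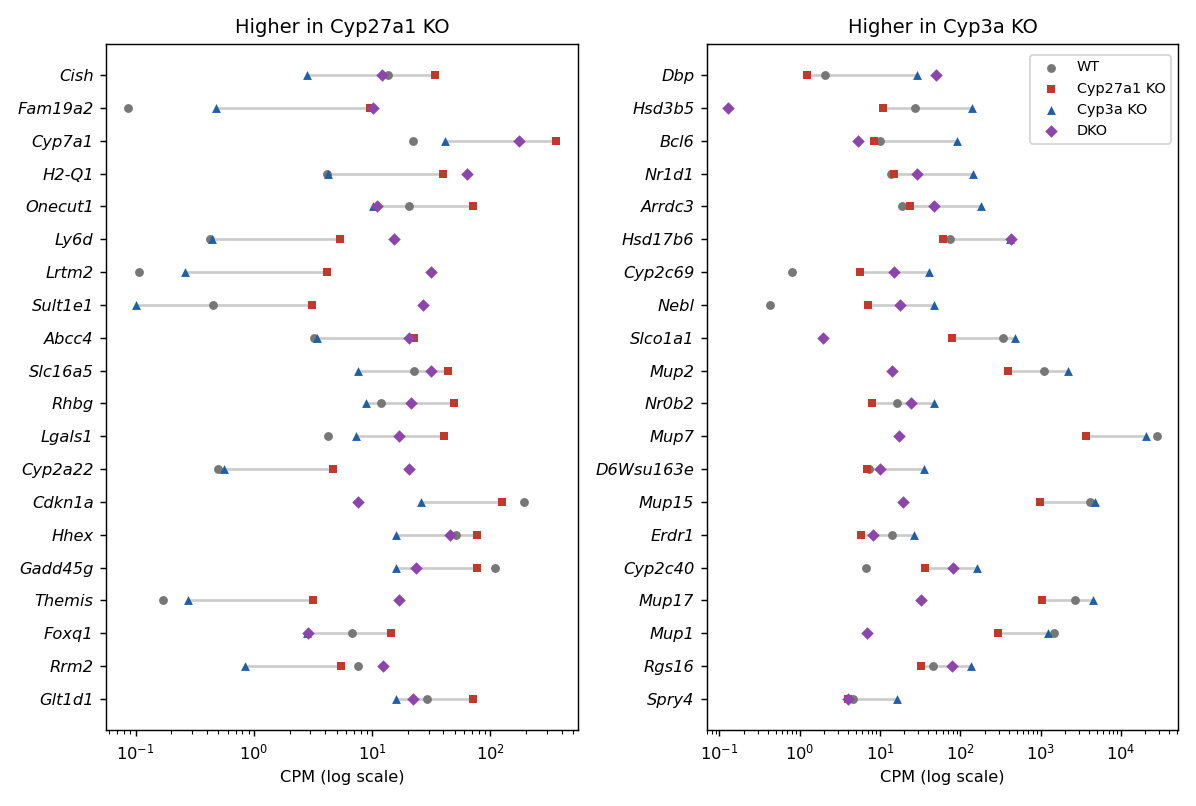
CPM (x axis, log scale) in each of the 4 libraries for the 20 largest differences in each direction that were held by both deposited tables, had a mean of at least 5 CPM and were neither Cyp27a1 or Cyp3a genes, predicted genes nor pseudogenes. Grey bars join the 2 single knockouts; Cyp7a1 is at 362 against 41.3 CPM in the left panel, and Dbp, at 28.9 against 1.22 CPM, heads the right panel.

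Some circadian clock genes were far apart in the 2 knockouts. In mouse liver, CLOCK and BMAL1 (Arntl) activate the genes of REV-ERB (Nr1d1 and Nr1d2), the Per genes and Dbp, and REV-ERB in turn represses Arntl, Npas2 and Cry1, so the 2 groups peak at opposite times of day. Of the 15 genes of the Dbp group, 5 were higher in the Cyp3a KO and 0 in the Cyp27a1 KO by the rule, with a median of -0.55; the other 10 were under it, and Tspan4, Usp2 and Hlf had their higher value in the Cyp27a1 KO. Of the 7 genes of the Arntl group, 4 were higher in the Cyp27a1 KO beside 0 in the Cyp3a KO, with a median of 1.41, and 3 were under the rule. The lists were drawn up with earlier results of these data known, so their direction is a description.

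Dbp, a transcription factor of the clock output, was 2.06 CPM in WT, 1.22 in Cyp27a1 KO, 28.9 in Cyp3a KO and 50 in DKO liver, 23.6-fold (18.3 to 31.0) higher in the Cyp3a KO. Nr1d1 was 13.6 CPM in WT, 14.8 in Cyp27a1 KO, 143 in Cyp3a KO and 29.2 in DKO liver, a 9.66-fold difference (8.95 to 10.4). Both were low in WT and the Cyp27a1 KO alike. Nr1d2 was 49.1, 39.4, 91.9 and 113 CPM in WT, Cyp27a1 KO, Cyp3a KO and DKO. Ciart and Bhlhe41, repressors of CLOCK and BMAL1 whose E-boxes are printed above, were 2.91 and 0.904 CPM in the Cyp27a1 KO against 12.0 and 5.19 in the Cyp3a KO, or 4.12-fold (3.43 to 4.98) and 5.75-fold (4.17 to 8.07). Per1 (29.2 and 35.5 CPM), Per2 (7.01 and 8.13) and Cry2 (30.5 and 36.4) differed by less than 1.5-fold, and Per3 (2.45 and 5.15) was just under the rule.

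In the Arntl group, Arntl was 29.6 CPM in WT, 28.9 in Cyp27a1 KO, 10.6 in Cyp3a KO and 1.98 in DKO liver, 2.74-fold (2.48 to 3.03) higher in the Cyp27a1 KO. Npas2, a partner of BMAL1, was 4.87, 6.04, 0.739 and 0.185 CPM in the same order, an 8.18-fold difference (5.8 to 11.8), and Cry1, a repressor of CLOCK and BMAL1, 39.6, 26.6, 6.83 and 7.48 CPM. For these 3 genes WT and the Cyp27a1 KO were high and the Cyp3a KO and the DKO low. Nfil3 (75.9 and 39.2 CPM), Clock (73.5 and 60.8) and Rora (92.1 and 91.8) were under the rule. The time of collection of each mouse is not given in the sources used here, so genotype and time of day cannot be told apart in these differences.

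**Figure D4:**
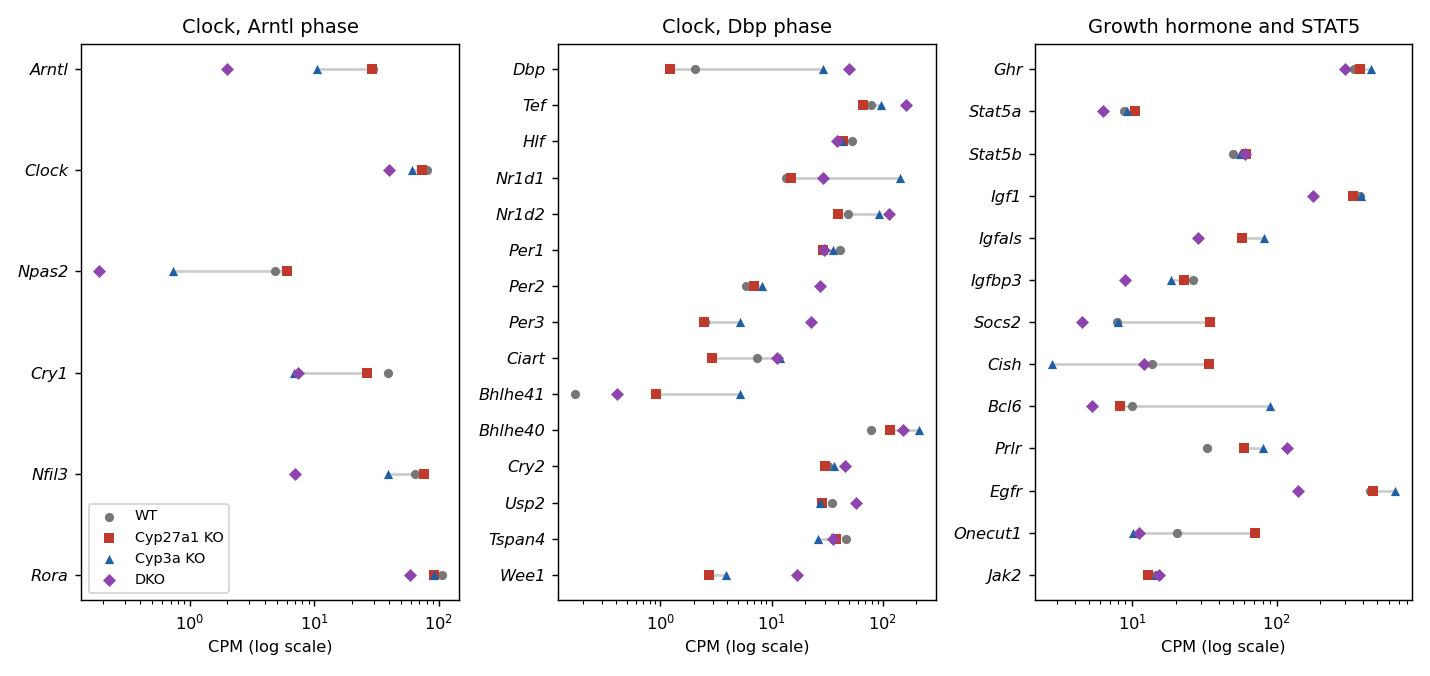
CPM (x axis, log scale) in each of the 4 libraries for 6 of the 7 Arntl-group clock genes, the 15 Dbp-group clock genes and the 13 measured growth hormone and STAT5 genes; grey bars join the 2 single knockouts. WT (grey circles) sits beside the Cyp27a1 KO (red squares) for Arntl, Npas2, Dbp and Nr1d1, while the Cyp27a1 KO alone is high for Socs2 and the Cyp3a KO (blue triangles) alone is high for Bcl6.

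Among the 16 glucocorticoid-responsive genes, 5 were higher in the Cyp27a1 KO beside 0 in the Cyp3a KO, with a median of 0.10. Over all genes these shares were 1.59% and 1.21%. Cdkn1a, the cell cycle inhibitor p21, was 194 CPM in WT, 126 in Cyp27a1 KO, 25.8 in Cyp3a KO and 7.55 in DKO liver, a 4.87-fold difference (4.58 to 5.17). Gadd45g was 110.4, 76.8, 16 and 23.7 CPM in WT, Cyp27a1 KO, Cyp3a KO and DKO. The metallothionein gene Mt2 was 426, 512, 136 and 343 CPM, and Mt1 745, 733, 248 and 573 CPM. For these 4 genes WT stood with the Cyp27a1 KO and the Cyp3a KO was lower. Other members did not take part: Fkbp5 was 197 CPM in the Cyp27a1 KO against 139 in the Cyp3a KO, and Tsc22d3 98.2 and 121.

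Stress and early-response genes past the rule lay on both sides, and their counts stand beside 2.8% of all genes past it in either direction. Gdf15 and Trib3, induced by ATF4, were 82.4 and 7.43 CPM in the Cyp27a1 KO against 237 and 22 in the Cyp3a KO, 2 of 13 members of their list. Jun (101 and 229.8 CPM) and Atf3 (1.97 and 5.93) were higher in the Cyp3a KO and Myc (30.4 and 13) in the Cyp27a1 KO, out of 12 immediate early genes. Of 14 p53 targets, Cdkn1a was higher in the Cyp27a1 KO, and Gadd45a (1.87 and 5.87 CPM) and Trp53inp1 (141 and 320.3) in the Cyp3a KO. Of 16 endoplasmic reticulum chaperone and folding genes, 0 were past the rule. Higher values in the Cyp3a KO were found for 15, beside 5904 of all 11743 genes, and the median was -0.36. Sdf2l1 was closest, at 13.9 and 28.1 CPM, a CPM ratio of 2.02 but a log2 difference of -0.99 by the rule. Of 18 iron genes, the hormone hepcidin, Hamp, was 642 CPM in WT, 112 in Cyp27a1 KO, 272 in Cyp3a KO and 1.4 in DKO liver, and the siderophore-binding Lcn2 was 20.7 CPM in the Cyp27a1 KO against 4.53 in the Cyp3a KO.

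The interferon-related genes past the rule were higher in the Cyp3a KO, beside 1.21% of all genes past it on that side. Of 24 response genes 1 passed the rule, Ifi47, at 7.91 CPM in the Cyp27a1 KO against 16.5 in the Cyp3a KO. Of 17 interferon-inducible GTPases 2 passed it, Gbp10 (4.38 and 17.2 CPM) and Iigp1 (105 and 259). Higher values in the Cyp3a KO were found for 17 of the 24 and 14 of the 17, beside 5904 of all 11743 genes. The medians were -0.25 and -0.21. Single genes outside the lists included H2-Q1, an MHC class I gene at 4.16 CPM in WT, 39.6 in Cyp27a1 KO, 4.19 in Cyp3a KO and 63.4 in DKO liver, 9.45-fold (8.19 to 10.9) higher in the Cyp27a1 KO. The list of MHC class I and antigen genes, which left H2-Q1 out, did not share this difference. Of its 14 measured members 0 passed the rule on either side, with log2 differences from -0.60 to 0.39 and a median of -0.16. The Cyp3a KO had the higher value for 9 of them and the Cyp27a1 KO for 5. The liver homeobox gene Hhex was 77.1 CPM in the Cyp27a1 KO against 15.9 in the Cyp3a KO. Of 14 pericentral genes 2 were past the rule, both toward the Cyp27a1 KO, beside 1.59% of all genes. The 2 were Cyp2a5, and the ammonium transporter gene Rhbg at 49.2 and 8.79 CPM. Toward the Cyp3a KO, the arrestin-domain gene Arrdc3 was 18.6 CPM in WT, 23.3 in Cyp27a1 KO, 179 in Cyp3a KO and 46.7 in DKO liver, a 7.68-fold difference (7.23 to 8.17), and Rgs16, which ends G protein signals, was 32.3 CPM in the Cyp27a1 KO against 135 in the Cyp3a KO. Of the genes past the rule, 52 of 187 and 50 of 142 were in at least 1 list. Whole lists with 0 members past the rule numbered 19 of 62, among them the apolipoproteins, complement and coagulation factors, periportal and urea cycle genes, ribosomal proteins and nuclear respiratory chain genes. With 2.8% of all genes past the rule in either direction, 0 is a common outcome for lists of this length. It does not show that a list was level, and some of the 19 held 1 measured gene.

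Markers of the cell types in liver were compared as lists, as fewer cells of a type and less RNA per cell cannot be told apart in whole tissue. Over all genes 2.8% were past the rule, so 0 members past it in a short list does not set that list apart. The 10 hepatocyte markers summed to 80571 CPM in the Cyp27a1 KO against 83647 in the Cyp3a KO, with 0 past the rule, so the defining markers of the labelled tissue were present in both. The 12 Kupffer cell markers summed to 345 CPM in WT, 357 in Cyp27a1 KO, 228 in Cyp3a KO and 509.6 in DKO liver; 0 of 12 were past the rule, while 11 had the higher value in the Cyp27a1 KO, beside 5835 of all 11743 genes, with a median of 0.72. Vsig4, a macrophage complement receptor, was 18.8 and 9.25 CPM and Clec4f, a Kupffer cell lectin, 78.4 and 50.6. Of the 5 measured erythroid genes 0 were past the rule, and each had its higher value in the Cyp27a1 KO, with a sum of 448 against 286 CPM. The 12 measured stellate and matrix genes had a sum of 212 against 262 CPM, with Col1a1 (5.68 and 14.3 CPM) past the rule in both tables and Col3a1 (17.5 and 38.2) in the counts. Of 10 endothelial genes Lyve1 was higher in the Cyp27a1 KO, at 27.0 against 11.7 CPM, and their sums were 255 and 237 CPM. The 5 measured cholangiocyte genes summed to 42.4 and 52.4 CPM; 3 of 8 monocyte and neutrophil markers and 1 of 10 lymphocyte markers reached the level filter, and Retnlg had 0 counts in both libraries. The part of these markers in the other differences was not tested. Mitochondrial transcripts took 5.72% of counts in the Cyp27a1 KO against 6.19% in the Cyp3a KO, and Alb 3.78% and 4.01%.

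The second deposited table, in TPM, gave much the same differences. After its median shift of 0.09 was taken off, 163 of the 187 genes higher in the Cyp27a1 KO (87.2%; 1.39% of all genes) and 113 of the 142 higher in the Cyp3a KO (79.6%; 0.962% of all) were also at least 2-fold apart the same way in TPM. Of the 53 not held, 52 had a TPM difference of the same sign and 1 the opposite sign. Across the 11743 genes, which are not independent replicates and share their reads between the tables, the differences correlated at r = 0.948. Cyp7a1 was 286 TPM in the Cyp27a1 KO against 38.9 in the Cyp3a KO, and Nr0b2 10.8 and 59.8 TPM.

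**Figure D5:**
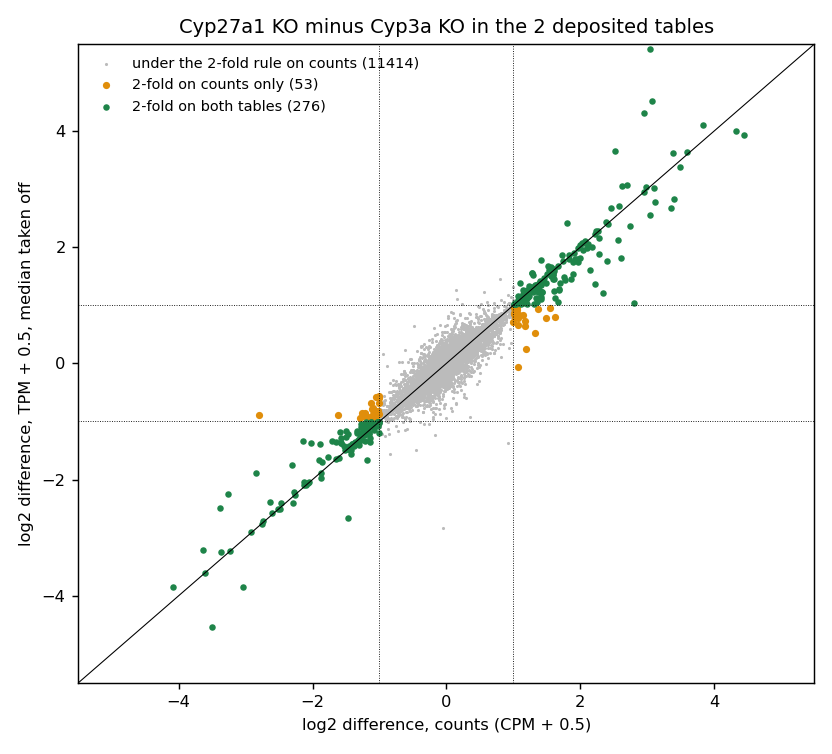
Each point is 1 gene, by its log2 difference (Cyp27a1 KO minus Cyp3a KO) from the counts (x axis) and from TPM after its median was taken off (y axis). Green points (276) are at least 2-fold apart in both tables and orange points (53) in the counts alone; 8 genes beyond the axes are not drawn, and dotted lines mark 2-fold.

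WT did not side with 1 knockout. Of the 187 genes higher in the Cyp27a1 KO, WT was nearer the Cyp27a1 KO for 87 and nearer the Cyp3a KO for 100, and it lay between the 2 knockouts for 101, below both for 56 and above both for 30. For the 142 that were higher in the Cyp3a KO, WT was nearer the Cyp27a1 KO for 88 and nearer the Cyp3a KO for 54, between them for 83, below both for 42 and above both for 17. By the same rule 447 genes (3.81%) were apart between WT and the Cyp27a1 KO and 520 (4.43%) between WT and the Cyp3a KO, so the 329 that separated the 2 knockouts were the fewest of the 3 counts; the 3 comparisons share libraries. The DKO was nearer the Cyp27a1 KO for 115 of the 187 and for 81 of the 142. With 1 library each, the median size of a difference was 0.18 between the knockouts, 0.20 between WT and the Cyp27a1 KO and 0.22 between WT and the Cyp3a KO.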

How the data were processed

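RNA sequencing of liver from 4 male mice, 1 per genotype, was used; per the labels' protocols, RNAlater-kept tissue was extracted with Qiagen RNeasy and the kit for library preparation was TruSeq RNA v2. Tools named in the submitters' processing notes, with no role for each, are kallisto 0.43.1, HISAT2 2.0.5 and Trimmomatic 0.33, beside the build mm10; neither the annotation nor any use of strand in counting is given in the sources used here, so reads of overlapping antisense genes cannot be told apart. The authors deposited estimated counts for each gene symbol, unscaled (57.7% whole numbers), and these were rounded here. The authors also deposited TPM, which fix the total of a library and keep no depth; they were used as a check. 1 row without a gene name, at 0 counts, was dropped. Of 33639 symbols, 32114 matched 1 gene of GENCODE M21 (GRCm38), the source of coordinates.

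Counts were scaled by TMM (edgeR 4.0.16, R 4.3.3), with factors of 0.937 in WT, 0.996 in Cyp27a1 KO, 0.994 in Cyp3a KO and 1.08 in DKO liver. Log2 differences use a pseudocount of 0.5 CPM, which understates those of low genes; folds in the text are CPM ratios without it. Intervals are exact 95% Clopper-Pearson intervals of the count ratio, reads lack molecular identifiers and so are not independent molecules, and intervals cover counting error only. The rule was tested on simulated data. Genes named are the 20 largest differences and 10 highest-count genes per direction held by both tables, all measured members of the bile acid, Cyp3a, transport and clock lists, and up to 6 per other list; not all are printed, a few members counted in the lists are not reported here by name, and members named to show where a list was level (Mup20, Ghr, Igf1, Fkbp5, Tsc22d3 and Clec4f) were chosen after their values were seen. The members and lists were chosen with earlier results of these data known. Alternatives were library-total and median-of-ratios scaling (DESeq2 1.42.0), TPM, other filters, pseudocounts and fold rules. Python 3.11.15, numpy 2.4.6, scipy 1.17.1 and pandas 2.3.3 were used.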

Additional observations from a re-analysis of the deposited data

How the results depend on the processing

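The main counts were 187 genes higher in the Cyp27a1 KO and 142 higher in the Cyp3a KO. A 4-fold rule left 51 and 31. The other alternatives stayed within 1.5 times of the main counts: 191 and 141 with library-total scaling, 190 and 141 with median-of-ratios scaling, 257 and 128 with TPM as deposited, 231 and 180 with no level filter, 134 and 98 with a mean of at least 5 CPM, 192 and 150 with the filter over the 2 single knockouts, 237 and 198 with a pseudocount of 0.1, 136 and 96 with a pseudocount of 2, 187 and 142 without the counting interval, and 218 and 159 with TPM recentred on its median gene, the last chosen after seeing the data. TPM as deposited put 66.8% of the genes past the rule on the Cyp27a1 KO side, beside 56.8% in the main analysis. In every setting listed 0 genes past the main rule were past it in the opposite direction. Of all 329 genes past the main rule, 254 were still past it with TPM as deposited and 267 with recentred TPM. With the 5 CPM filter 232 were, and with a pseudocount of 2 also 232. All 120 named genes past the rule kept their sign. Still past it were 112 of them with TPM as deposited, 115 with recentred TPM and 111 with the 5 CPM filter. With a pseudocount of 2 there were 114, and with the 4-fold rule 57. Many named genes were chosen as held by both tables or by their level, so their counts with TPM and the 5 CPM filter are partly fixed by that choice. No paired analysis was possible because there was 1 library per genotype, and no library could be left out for the same reason. The counting interval removed no gene, since 0 genes at least 2-fold apart in log2(CPM + 0.5) had an interval that included 1. This 0 does not measure depth, because the pseudocount already holds genes with few counts under 2-fold. Without the pseudocount, Sult2a5 was 6.03-fold higher in the Cyp27a1 KO with an interval of 0.732 to 277.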

Other observations

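Of 5 measured genes on chromosome 1 between 24612775 and 24616197 (GRCm38), all annotated as unprocessed pseudogenes, 4 were low in the Cyp3a KO alone. These 4, Gm28661, Gm10925, Gm28437 and Gm28438, were picked out after their values were seen and summed to 2218 CPM in WT, 2117 in Cyp27a1 KO, 17.7 in Cyp3a KO and 1274 in DKO liver. The 13 protein-coding genes of the mitochondrial genome summed to 59029, 57438, 62237 and 67971 CPM in the same libraries, and these 4 and 13 together to 61247, 59555, 62255 and 69245 CPM. The fifth pseudogene, Gm29216, was not low, at 1359 CPM in the Cyp27a1 KO against 1383 in the Cyp3a KO, and all 5 summed to 3479 CPM in WT, 3476 in Cyp27a1 KO, 1401 in Cyp3a KO and 3438 in DKO liver. AW822252, a transcribed pseudogene on the X chromosome, had 131 counts in WT, 89 in Cyp27a1 KO, 48252 in Cyp3a KO and 33089 in DKO liver, so it was high in both libraries with the Cyp3a deletion. The cause of these values was not tested.

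Around the knocked-out loci, 3 of 43 measured genes within 5 Mb of Cyp27a1 were past the rule (6.98%): Igfbp5 and Wdfy1 higher in the Cyp27a1 KO and Igfbp2 higher in the Cyp3a KO. Wdfy1 was 8.26 CPM in WT, 33.2 in Cyp27a1 KO, 8.55 in Cyp3a KO and 34.5 in DKO liver. Within 5 Mb of the Cyp3a cluster 1 of 73 was past it (1.37%), Urad. Chromosomes 4 and 1 had the highest shares of genes past the rule, 4.69% and 4.41%, beside 2.8% over all. The share of chromosome 1 includes Cyp27a1 itself and the pseudogenes Gm28661 and Gm10925 named above.

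Several genes low in WT were high in the Cyp27a1 KO and the DKO and low in the Cyp3a KO. Fam19a2, a secreted chemokine-like protein gene, was 0.0858 CPM in WT, 9.56 in Cyp27a1 KO, 0.479 in Cyp3a KO and 10.2 in DKO liver. Ly6d was 0.429, 5.30, 0.439 and 15.4 CPM, and Lrtm2 0.107, 4.14, 0.260 and 31.4 CPM, in the same order. Nebl, a nebulin-like actin-binding protein gene, had WT lowest and the Cyp3a KO highest, at 0.429, 7.01, 46.3 and 17.8 CPM.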
